A study of Mus musculus with 61 samples.

Results

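The Ifi200 cluster is a run of interferon-inducible genes on mouse chromosome 1, and 10 of its genes were followed here: Ifi202b, Mndal, Ifi203, Ifi204, Ifi205, Ifi207, Ifi209, Ifi211, Ifi213 and Aim2. They were chosen by name, and all 10 were found among the 21169 genes of the adipose count table. Of these, 6 were listed under the names used here and 4 under older symbols (Ifi207 as AI607873, Ifi209 as Pyhin1, Ifi211 as Mnda and Ifi213 as Pydc4), matched by gene identifier. The study measured polyadenylated RNA in adipose tissue of the 8 inbred strains that founded the Diversity Outbred (DO) mouse stock, all kept on a high-fat, high-sugar diet with 45 percent fat. There were 61 libraries, 8 per strain in B6, NOD, NZO, PWK and WSB but 7 per strain in Cast, AJ and 129. The labels used here state no fat depot, sex, age or batch, and there was no group on another diet. Each library held between 19851580 and 61277576 estimated counts. The p-values of strain differences weigh them against the spread between libraries within strains, estimated over all 8 strains together.

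Proteins of this family carry a DNA-binding HIN domain, and most carry a pyrin domain through which they bind partner proteins. They are known as nuclear and cytosolic sensors of DNA and as products of interferon signalling, and macrophages are known to express many of them. AIM2 detects DNA in the cytosol and assembles an inflammasome through the adaptor encoded by Pycard, whereas the Ifi202b product has HIN domains without a pyrin domain and can compete with AIM2 for DNA. Inbred mouse strains are known to differ in the gene content of this cluster, and B6 is known to carry a deletion at the start of Ifi202b. The reference genome is that of a B6 mouse, so reads of other strains were assigned with B6 sequence unless the authors did otherwise, which is not given in the sources used here.

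The members lie on build GRCm38 between bases 173350879 and 174031810 of chromosome 1, a span of 681 kb, with Aim2 at one end and Ifi205 at the other. Aim2 (173350879 to 173466040) and Ifi209 (173630917 to 173647928) lie on the plus strand. The other members lie on the minus strand, in the order Ifi213 (173566284 to 173599274), Ifi207 (173723430 to 173741809), Ifi204 (173747293 to 173766943), Mndal (173857220 to 173942491), Ifi211 (173896345 to 173913046), Ifi203 (173920407 to 173942672), Ifi202b (173962568 to 173982744) and Ifi205 (174011998 to 174031810). The annotated span of Mndal covers that of Ifi211 and nearly all of Ifi203, and 37 exon bases of Mndal and Ifi203 coincide.

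Within the 150 bases before the start, the sequences of some members are alike, and those of others are not. The 150 bases before the annotated start are printed for 8 members, from the RefSeq promoter table on build GRCm38.p6, which is B6 sequence. These starts need not match the ends of the gene spans given above, and those of Aim2 and Mndal lie well inside their spans. Capitals mark the core of the interferon-stimulated response element, GAAA and GAAA with any 2 bases between them, searched on both strands, and 1 start is shown for each gene. Of the 2 starts of Ifi203 the one with a match is shown, and of the 2 of Mndal, both with a match, the one upstream.
Ifi202b (chr1:173982845-173982994, - strand): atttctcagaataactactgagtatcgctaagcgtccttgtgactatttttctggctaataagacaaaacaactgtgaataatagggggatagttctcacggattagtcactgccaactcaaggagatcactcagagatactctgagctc
Mndal (chr1:173880188-173880337, - strand): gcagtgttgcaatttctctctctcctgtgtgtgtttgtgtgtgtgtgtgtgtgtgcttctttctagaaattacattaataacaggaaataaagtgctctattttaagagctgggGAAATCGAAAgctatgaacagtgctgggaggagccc
Ifi203 (chr1:173942493-173942642, - strand): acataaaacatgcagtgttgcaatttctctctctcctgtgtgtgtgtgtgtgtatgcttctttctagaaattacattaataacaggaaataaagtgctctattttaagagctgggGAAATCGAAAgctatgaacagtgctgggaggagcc
Ifi211 (chr1:173913047-173913196, - strand): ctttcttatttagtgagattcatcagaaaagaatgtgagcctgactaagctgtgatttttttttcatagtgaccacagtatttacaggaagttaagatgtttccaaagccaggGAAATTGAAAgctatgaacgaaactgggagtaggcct
Ifi205 (chr1:174031756-174031905, - strand): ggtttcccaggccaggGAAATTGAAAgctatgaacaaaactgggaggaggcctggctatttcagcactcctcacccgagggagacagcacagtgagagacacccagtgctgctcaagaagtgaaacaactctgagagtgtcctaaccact
Ifi213 (chr1:173599273-173599422, - strand): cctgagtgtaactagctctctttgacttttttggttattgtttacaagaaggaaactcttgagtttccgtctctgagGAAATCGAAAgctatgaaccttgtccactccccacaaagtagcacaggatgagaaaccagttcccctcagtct
Ifi209 (chr1:173630709-173630858, + strand): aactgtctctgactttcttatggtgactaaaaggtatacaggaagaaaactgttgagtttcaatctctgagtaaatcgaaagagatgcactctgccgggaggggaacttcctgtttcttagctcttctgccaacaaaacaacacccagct
Aim2 (chr1:173420454-173420603, + strand): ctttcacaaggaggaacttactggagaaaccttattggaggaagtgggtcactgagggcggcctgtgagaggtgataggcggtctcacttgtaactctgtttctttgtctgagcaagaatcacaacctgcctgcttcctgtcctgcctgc

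The core was found in the promoter (250 bases before to 50 after a start) of 6 of the 9 members with an entry, against 3.44% of 32841 promoters of the same length. It stood 36 bases before the printed start of Mndal, 35 before that of Ifi203 and 37 before that of Ifi211. At the other start of Mndal it stood on the opposite strand, at 54 bases before the start. The printed stretches of Mndal and Ifi203 were 92.6% identical over 149 aligned bases. That of Ifi207, which is not printed, was 88.4% identical to that of Ifi211 over 147 bases. Within these windows of 150 bases other pairs aligned over 57 bases or fewer, and the stretches of Ifi202b and Aim2 aligned with no other. The core of Ifi205 stood 134 bases before its start, so its window leaves out most of the sequence upstream of the core. Likeness beyond the windows was not measured. The letters of the core are not in the windows of Ifi202b, Ifi209 and Aim2. Ifi202b held the gamma-interferon-activated pattern, TTC and GAA with any 3 bases between them, which 8.3% of promoters held. These are letter matches in B6 sequence and describe no binding. B6 is known to carry a deletion at the start of Ifi202b, so its window need not be that of strains with the transcript. Whether those strains hold the core there was not tested.

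Similarity among the transcripts limits what the counts can separate. The longest transcript of Ifi205 was 97.4% identical to that of Ifi211 over its best alignment, and Ifi204 was 96.9% identical to Ifi211. Mndal was 95.4% identical to Ifi211 over 1070 bases. The count estimates were not whole in 61 of 61 libraries for Ifi203, Ifi204, Ifi205 and Ifi211, and in 58 of 61 for Mndal, so some of their reads were shared with other loci and their levels are uncertain to that extent. Which loci shared them was not tested. The pseudogene Ifi203-ps, 97.8% identical to Ifi203 over 671 bases, also had counts that were not whole in 61 of 61 libraries. Counts were also not whole in 43 of 61 libraries for Ifi207, 39 for Ifi209 and 21 for Ifi213, so the same limit holds for them. Ifi209 was 96.9% identical over 1946 bases to Ifi214, a gene of the cluster that is not a member. Of the members, only Ifi202b and Aim2 had whole counts in all 61 libraries. The nearest relative of Ifi202b in the cluster, Ifi205, was 78.6% identical over 616 bases.

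All 10 members differed among the 8 strains by edgeR's quasi-likelihood F-test with Benjamini-Hochberg adjustment, but so did 89.9% of the 18603 genes tested. The size of the strain difference set 2 members apart from most genes. Strain accounted for 94.9% of the variance of log2 CPM (counts scaled to library size) of Mndal and for 93.5% of that of Ifi202b. Of all genes tested, 0.435% had a share as high as Mndal and 0.704% a share as high as Ifi202b, with a median share of 48.7%. The share was 84.1% for Aim2 and 80.3% for Ifi213, and it was lowest for Ifi205 at 52.2%. Of the 8 other genes in the table inside the span or within 500 kb of it, 7 were tested. Their shares ran from 21.1% for Apcs to 78.0% for Gm18445. Gm18445 lies inside the span, between Ifi202b and Ifi205, and outside the span the highest share was 54.2%, for Fcer1a.

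Ifi202b was abundant in NZO, present in 5 strains and almost absent in B6 and Cast. In NZO the 8 libraries ran from 43.1 to 123 CPM with a median of 88.3 (mean 86.8 ± 28.05, SD, n = 8). PWK ran from 13.8 to 31.4 CPM with a median of 27.1, and NOD from 14.6 to 35.7 CPM with a median of 19.3. AJ ran from 13.8 to 25.4 CPM (median 17.8). These ranges overlapped with each other. WSB ran from 10.2 to 26.6 CPM (median 17.4). The lowest of the strains that clearly held the transcript was 129, from 10.3 to 20.7 CPM (median 14.9). Every NZO library lay above every library of the other strains.

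The 2 strains with little Ifi202b were separate from all the others. In B6 the libraries ran from 0.0246 to 0.474 CPM with a median of 0.125, and all 8 libraries together held 54 counts. In Cast 4 of 7 libraries had no count, which allows up to 0.112 CPM in the shallowest of them (3 counts, for counting error only), and replicates 7, 1 and 8 had 0.133, 0.486 and 2.68 CPM. No library of either strain reached the lowest library of the other 6 strains. Cast replicate 8 was also the library in which 21 autosomal genes that were high in PWK and near 0 in the other Cast libraries stood at a median of 11.2% of their PWK level. The part of such traces in its Ifi202b value was not tested.

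Against the mean of the other 7 strains, Ifi202b was higher in NZO by 3.94 on the log2 scale (SE 0.23, edgeR adjusted p = 4.11e-21). It was lower in B6, at -6.45 (SE 0.50, edgeR adjusted p = 7.78e-16), and in Cast, at -4.70 (SE 0.47, edgeR adjusted p = 1.64e-12). Without Cast replicates 1 and 8 the Cast value was -8.69. In the order of means, NZO exceeded its neighbour PWK by 1.85 (SE 0.38, edgeR adjusted p = 5.31e-05). The neighbours from 129 to PWK differed by 0.25 or less on the log2 scale and none of these 4 steps passed the test. Cast exceeded B6 by 1.53 (edgeR adjusted p = 0.031), but without Cast replicates 1 and 8 the sign turned, to -2.46 (edgeR adjusted p = 0.00431), so the order of the lowest pair rests on those libraries.

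Mndal, named for its likeness to the human myeloid nuclear differentiation antigen, was present in 4 strains and near 0 in the other 4. As for Ifi202b in Cast, few transcripts and reads left unassigned cannot be told apart in strains other than B6, since the sequence used for assignment is not given in the sources used here. In B6 the 8 libraries ran from 23.8 to 42.1 CPM with a median of 30.8 (mean 31.8 ± 7.12, SD, n = 8). The 129 libraries ran from 15.4 to 23.6 CPM (median 19.4), and NOD from 14.4 to 25.6 CPM (median 18.0). Every B6 library lay above every 129 library, although that step of 0.72 did not pass the test (edgeR adjusted p = 0.217). Cast ran from 8.50 to 31.1 CPM with a median of 10.4, and its highest library, replicate 5, stood apart from the other 6, which reached 11.6 CPM at most.

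AJ libraries ran from 0.0281 to 0.632 CPM (median 0.111), NZO from 0.0345 to 0.361 CPM (median 0.227), PWK from 0 to 0.505 CPM (median 0.225) and WSB from 0 to 0.447 CPM (median 0.114). These 4 strains overlapped with each other and lay below every library of B6, 129, NOD and Cast. The step between the groups, from AJ to Cast, was 5.79 on the log2 scale (SE 0.47, edgeR adjusted p = 2.76e-15). Steps among the low strains were between 0.07 and 0.55 and none passed the test. Against the mean of the other 7 strains Mndal was highest in B6, at 4.57 (SE 0.21, edgeR adjusted p = 1.14e-25), and lowest in WSB, at -4.32 (SE 0.43, edgeR adjusted p = 2.00e-12).

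**Figure D1:**
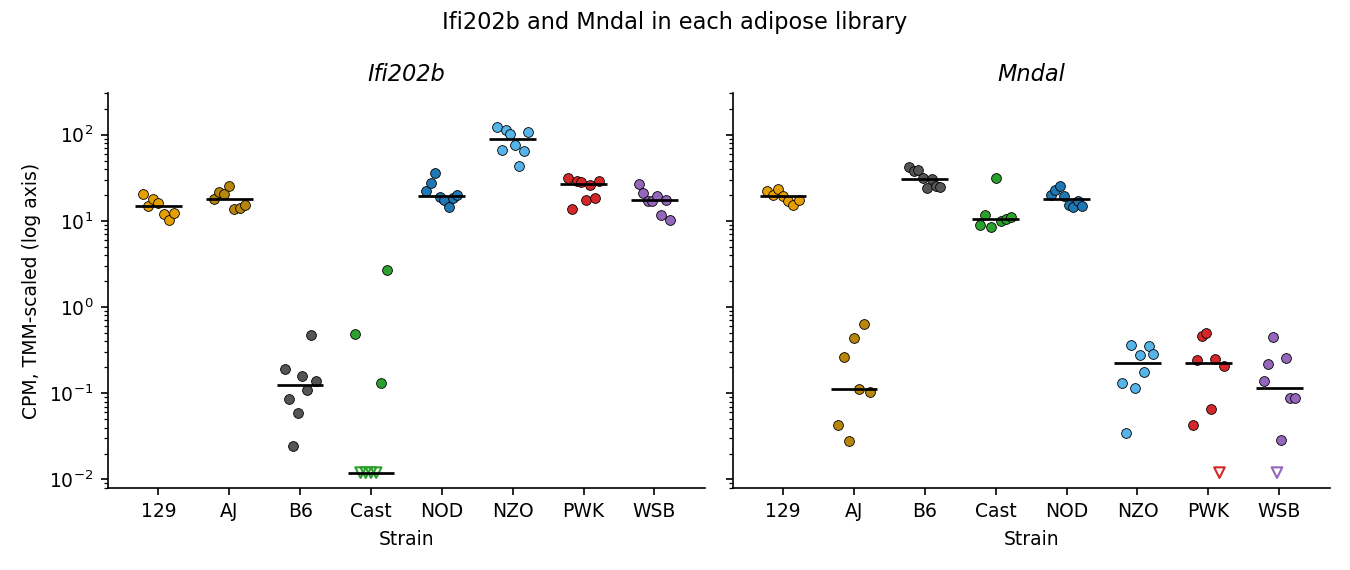
TMM-scaled CPM of Ifi202b and Mndal on a log axis, 1 point per library by strain, with the strain median as a line and open triangles for libraries at 0. Ifi202b is near 0 in B6 and Cast and highest in NZO, whereas Mndal is near 0 in AJ, NZO, PWK and WSB and highest in B6.

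The patterns of the 2 genes were not mirror images. B6 and Cast had Mndal with hardly any Ifi202b, AJ, NZO, PWK and WSB had Ifi202b with hardly any Mndal, and 129 and NOD had both. In 129 the mean was 14.9 CPM for Ifi202b and 19.3 CPM for Mndal, and in NOD it was 21.8 and 18.6 CPM. No strain was near 0 for both.

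Aim2, the DNA sensor of the inflammasome, was highest in NZO and lowest in Cast. NZO libraries ran from 6.38 to 16.2 CPM with a median of 10.5 (mean 10.8 ± 3.63, SD, n = 8). Cast libraries ran from 0.783 to 1.56 CPM with a median of 1.21 (mean 1.17 ± 0.309, SD, n = 7). All Cast libraries lay below all libraries of the other strains, and the NZO range overlapped only the highest libraries of NOD and PWK. WSB, the next lowest strain, had a median of 2.70 CPM. Against the mean of the other 7 strains Aim2 was at 1.72 in NZO (SE 0.12, edgeR adjusted p = 1.12e-17), at -1.94 in Cast (SE 0.18, edgeR adjusted p = 1.15e-13) and at -0.58 in WSB (edgeR adjusted p = 0.00111). The means of B6, 129, PWK, AJ and NOD lay between 3.88 and 4.40 CPM, and no step between these neighbours passed the test.

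Ifi213 and Ifi209, both with pyrin domains, were highest in B6. Ifi213 ran from 0.848 to 6.86 CPM in B6 with a median of 3.11. In 129 all libraries together held 1 count of Ifi213. AJ had a mean of 0.337 ± 0.187 CPM (SD, n = 7), and NOD, NZO, PWK and WSB had means of 0.0674 CPM or less. The B6 difference from the other 7 strains was 5.37 on the log2 scale (SE 0.38, edgeR adjusted p = 1.78e-17). Cast had a mean of 0.592 CPM for Ifi213, of which replicate 5 alone had 2.99 CPM. Its difference of 2.52 (edgeR adjusted p = 2.35e-06) fell to 0.92 without that library and no longer passed the test (edgeR adjusted p = 0.0794).

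Ifi209 ran from 7.26 to 12.1 CPM in B6 with a median of 9.31 (mean 9.49 ± 1.55, SD, n = 8). The other strains had medians from 1.24 CPM in Cast to 3.41 CPM in PWK. Only NZO replicate 8, at 8.59 CPM, and Cast replicate 5, at 11.9 CPM, reached the B6 range. B6 was higher than the other 7 strains by 2.04 (SE 0.22, edgeR adjusted p = 5.02e-11). The Cast value of Ifi209, -0.02, did not pass the test with all libraries (edgeR adjusted p = 0.954), and without replicate 5 it was -1.23 (edgeR adjusted p = 3.53e-06).

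Ifi203, Ifi204, Ifi205, Ifi207 and Ifi211 were present in every strain, and their strain means differed by smaller factors. Ifi203 was highest in B6, at 60.4 ± 14.3 CPM (SD, n = 8), and lowest in Cast, at 24.8 ± 16.2 CPM (SD, n = 7), and no step between neighbours in its order passed the test. The other 4 had their highest mean in Cast, which for 2 of them rests on replicate 5. Ifi204, which can signal from DNA to the adaptor STING, had 54.9 CPM in Cast, 42.8 in NZO, 41.0 in B6 and 19.95 in AJ, where it was lowest. Ifi205 had 72.0 CPM in Cast and 20.5 in NZO. Ifi207 had 69.6 CPM in Cast, 66.7 in NZO and 23.1 in PWK, and Ifi211 had 26.9 CPM in Cast, 19.6 in B6 and 4.28 in AJ. Without Cast replicate 5 the Cast means were 56.3 CPM for Ifi207, below NZO, and 19.5 CPM for Ifi211, level with B6. Those of Ifi204 and Ifi205, 46.4 and 62.5 CPM, were still the highest of the strains.

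The Cast ranges of these genes were wide. Ifi204 ran from 24.4 to 105 CPM in Cast, Ifi207 from 32.5 to 149 CPM and Ifi211 from 11.9 to 71.4 CPM, each with replicate 5 on top. That library was the highest of Cast for 8 of the 10 members. Its mean log2 CPM over the interferon response list was 5.01 against 2.16 to 3.40 in the other 6 Cast libraries. Its summed adipocyte markers were 13684 CPM against 21708 to 48574 in the other 6 Cast libraries, and its summed macrophage markers were 2656 CPM against 1119 to 2447. The part of these differences in its member levels was not tested. In bulk tissue, fewer cells of a type and less RNA per cell cannot be told apart. Without it, the Cast differences remained called for Ifi204 at 0.73, Ifi205 at 1.11, Ifi207 at 0.62 and Ifi211 at 0.90, where all libraries gave 0.97, 1.32, 0.93 and 1.37 on the log2 scale.

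**Figure D2:**
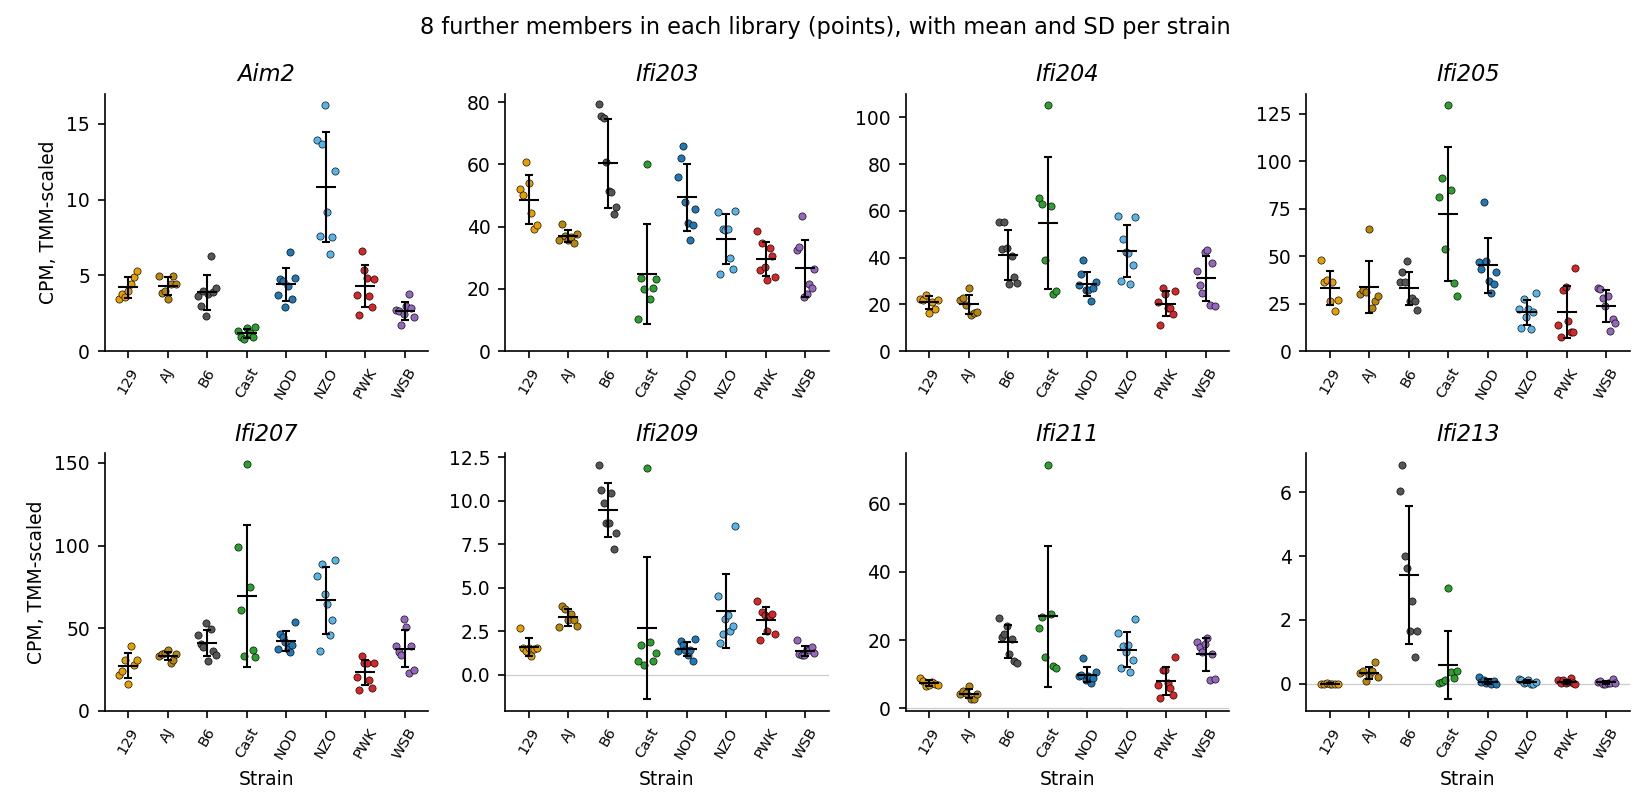
TMM-scaled CPM of the 8 members other than Ifi202b and Mndal, with 1 point per library and the mean and SD of each strain as bars. B6 stands apart for Ifi209 and Ifi213, NZO is highest and Cast lowest for Aim2, and 1 Cast library, replicate 5, lies far above the others for most genes.

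Per kb of merged exon, the mean level over strains was highest for Ifi202b, at 13.6 CPM per kb, and Ifi207, at 12.4. It was 9.11 for Ifi204, 8.43 for Ifi205, 7.65 for Ifi211 and 5.82 for Ifi203. Mndal had 2.88 CPM per kb, Aim2 had 1.27, Ifi209 had 0.943 and Ifi213 had 0.0838. The mean of Ifi202b is carried by NZO.

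Counted by strain, Cast had the most members called against the other 7 strains, 9 of 10, where 56.2% of all genes were called. Of these 6 were higher and 3 lower, against 29.6% and 26.6% of all genes. NZO had 7 of 10 against 53.9% (5 higher and 2 lower, against 27.2% and 26.6%), and WSB 6 against 49.3% (2 higher and 4 lower, against 25.6% and 23.7%). PWK had 7 against 43.6% (1 higher and 6 lower, against 24.6% and 19%). B6 had 7 of 10 against 26.3% (6 higher and 1 lower, against 14.6% and 11.7%). In 129 there were 8 against 18.6% (3 higher and 5 lower, against 10.8% and 7.78%), and in AJ 5 against 23% (2 higher and 3 lower, against 13.4% and 9.59%). NOD had 5 against 26.5% (4 higher and 1 lower, against 14.7% and 11.8%). Over all strains 54 of 80 contrasts were called, or 67.5%, against 37.2% over all genes. Over all strain pairs 164 of 280 tests were called, or 58.6%, against 37.1% over all genes. The median log2 difference of the members was 0.64 in B6, 0.95 in Cast and 0.52 in NZO, and -0.64 in PWK and -0.54 in WSB, where the median over all genes was between -0.02 and 0.02 in B6, Cast, NZO and WSB.

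A contrast with the mean of the other strains takes in strains at or near 0. Ifi202b was called higher in 129 at 1.04, although its 129 mean was below that of the 5 other strains that had the transcript, since B6 and Cast enter the mean of the others. On the deposited variance-stabilised values, which compress low counts, that difference was 0.31 and limma did not call it (adjusted p = 0.189).

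The 4 remaining genes of the cluster had means over strains from 0.262 CPM for Ifi214 to 3.89 CPM for Ifi203-ps. Among the members, Ifi209 had 3.35 CPM and Aim2 had 4.46 CPM by the same measure. Ifi206 (listed as Gm4955) and Ifi208 (listed as Pydc3) had their highest means in B6, at 1.54 ± 0.895 and 3.09 ± 1.33 CPM (SD, n = 8). Ifi208 is the closest relative of Ifi213, 96.4% identical over 2749 bases. Ifi214 (listed as BC094916) was highest in NZO, at 0.567 CPM, and the pseudogene Ifi203-ps (listed as Gm16340) was highest in AJ, at 8.27 ± 0.525 CPM (SD, n = 7).

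**Figure D3:**
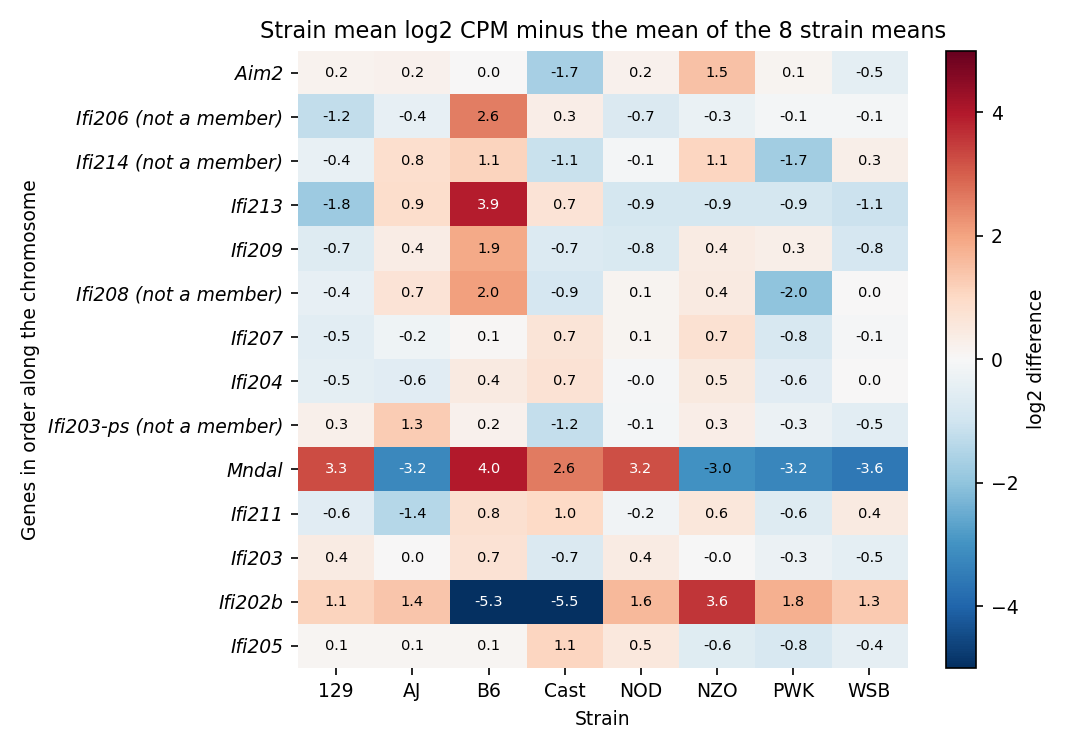
Mean log2 CPM of each strain minus the mean of the 8 strain means, for the 10 members and 4 further genes in chromosome order, with red for higher and blue for lower. The strongest colours are those of Ifi202b and Mndal, B6 is red for Ifi206, Ifi213, Ifi209, Ifi208 and Mndal, and neighbouring genes often differ in their strain pattern.

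Other genes of the pathways were higher in NZO. Of the DNA sensing and STING list 13 of 18 were higher and 1 lower, with a median log2 difference of 0.92, where 27.2% of all genes were higher and the median was -0.02. Ikbke, a kinase that activates interferon regulatory factors, was higher by 1.96 and the endosomal DNA receptor gene Tlr9 by 1.92. Nlrx1 was lower, at -0.35. Of inflammasome genes 12 of 16 were higher and 1 lower. Il1rn, which encodes the interleukin-1 receptor antagonist, was higher by 3.38 and Mefv, encoding pyrin, by 2.61. Il18 was lower, at -0.46. Of interferon receptor and signalling genes 12 of 16 were higher, led by Ptpn6 at 2.53 and Irf8 at 2.00.

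The interferon response list itself had 33 of 38 genes higher in NZO and 1 lower, with Oas3 at 2.62 and Oasl1 at 2.60, and Isg20 lower at -0.43. In B6 19 of 38 were higher and 0 lower, where 14.6% of all genes were higher, with Ifit3 at 1.41 and Rsad2 at 1.40. In Cast 4 were higher and 19 lower, where 29.6% and 26.6% of all genes were. In WSB 1 was higher, Ifi27l2a at 2.23, and 26 lower, against 25.6% and 23.7% of all genes. Markers of some immune cell types, but not of all, moved with the list in these strains. In B6 10 of 12 B cell markers (median log2 difference 1.39), 10 of 16 T and NK cell markers (0.76) and 6 of 10 dendritic cell markers (0.74) were higher and 0 of these lower, while 1 of 18 macrophage markers was higher and 1 lower. In Cast 16 of 16 T and NK cell, 11 of 12 B cell and 8 of 10 dendritic cell markers were lower, and in WSB 12 of 12 B cell and 15 of 18 macrophage markers. By contrast, of 8 neutrophil markers tested 3 were higher and 0 lower in Cast, and 0 were higher and 2 lower in B6. Cast macrophage markers were higher for 3 and lower for 6 of 18. WSB T and NK cell markers were higher for 4 and lower for 3 of 16. The part of these marker differences in the interferon list and the member levels was not tested.

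NZO also stood apart in macrophage markers: 16 of 18 were higher, and their summed level was 2976 to 8088 CPM in NZO against 656 to 3586 CPM in the other strains. Of the other immune cell markers 11 of 12 for B cells, 15 of 16 for T and NK cells and 8 of 8 tested for neutrophils were higher. Of all genes 27.2% were higher and 26.6% lower in NZO. Adipocyte markers were lower for 9 of 12 (median log2 difference -0.61) and mesothelial markers for 10 of 10. Summed adipocyte markers were 17402 to 29549 CPM in NZO, and 13684 to 48574 CPM over all libraries. NZO replicate 8 held 2959 CPM of B cell and 2911 CPM of neutrophil markers. The other 7 NZO libraries held 275 to 646 CPM of B cell and only 15.7 to 43.3 CPM of neutrophil markers. PWK replicate 6 held 397 CPM of neutrophil markers. The neutrophil differences of NZO were not tested without NZO replicate 8. The NZO differences of Ifi202b and Aim2 without this library were 3.903 and 1.71. The part of these marker differences in the NZO levels was not tested.

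Within strains the members were set against the mean log2 CPM of the interferon response list and of the macrophage list, giving 160 relations over 7 or 8 libraries each. By exact 2-sided permutation tests with Benjamini-Hochberg adjustment 14 passed for Pearson's r and 3 of these also for Spearman's rho. Within NZO, Ifi202b followed the macrophage list (r = 0.929, exact permutation p = 0.00122, adjusted 0.0317; rho = 0.976, exact permutation p = 0.000397, adjusted 0.0212), and r was 0.839 without the 2 libraries farthest from the median score. Within B6, Ifi209 followed the interferon list (r = 0.951, exact permutation p = 0.000149, adjusted 0.0119; rho = 0.976, exact permutation p = 0.000397, adjusted 0.0212), with r = 0.901 without 2 libraries. Within PWK, Aim2 followed the macrophage list (r = 0.953, exact permutation p = 0.000223, adjusted 0.0119; rho = 0.976, exact permutation p = 0.000397, adjusted 0.0212), with r = 0.862 without 2 libraries.

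The sign of r was positive in 8 of 8 strains for Aim2 with the macrophage list, from 0.507 to 0.953, of which 1 passed. It was also positive in 8 of 8 for Ifi203 with the interferon list, from 0.182 to 0.914, of which 3 passed. For Aim2 in 129 and NOD the relation rested on 2 libraries, since r without them was -0.02 and 0.04. Ifi202b with the macrophage list was positive in 4 of 8 strains.

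**Figure D4:**
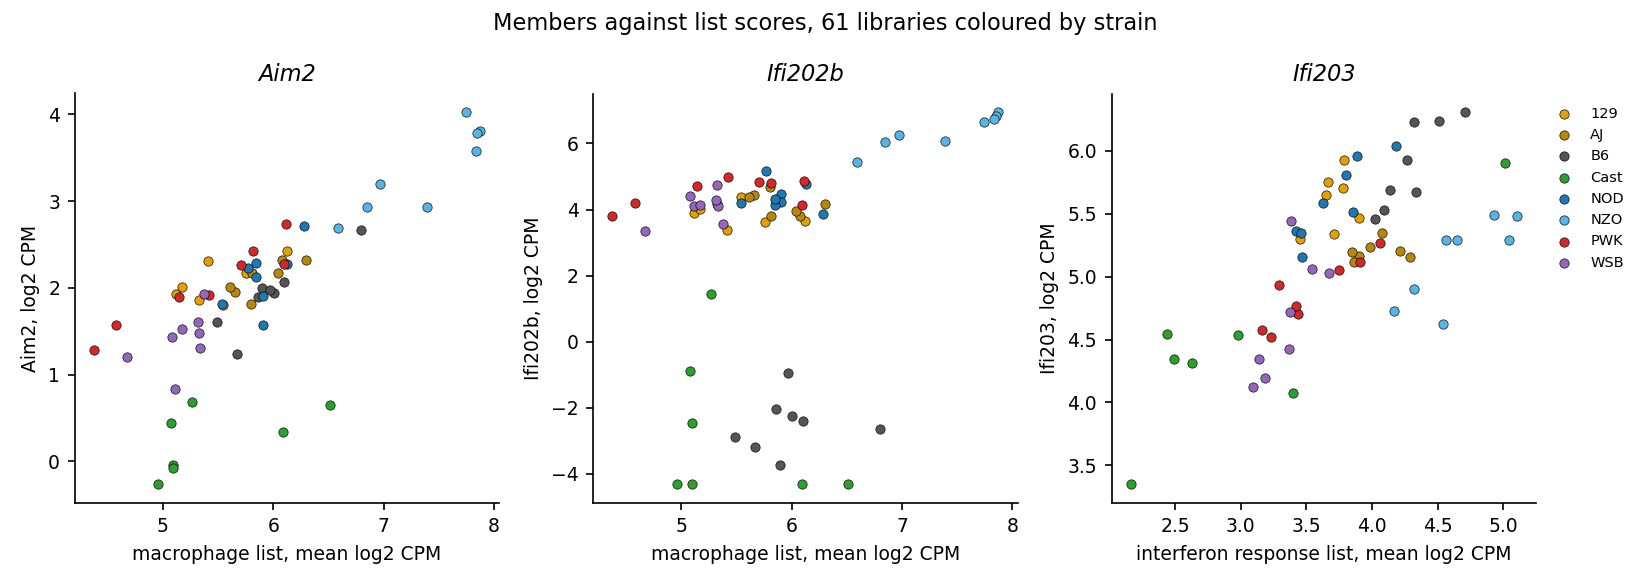
Log2 CPM of Aim2, Ifi202b and Ifi203 against the mean log2 CPM of the macrophage or interferon response list, with 1 point per library coloured by strain. NZO libraries lie at the high end of the macrophage list, and B6 and Cast lie far below the other strains for Ifi202b at like macrophage levels.

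Genes whose log2 CPM followed Ifi202b most closely over the 61 libraries were Rnaset2a (r = 0.88), Fam168a (0.781) and Trim34b (0.776), all on other chromosomes. After the strain means were subtracted they were Iigp1 (0.665), Wfdc17 (0.657) and Hba-a1 (0.606). For Mndal they were Abat (0.73), Izumo4 (0.721) and Cldn34c1 (0.705), and after subtraction Pigb (0.537), Fam179b (0.535) and Dsel (0.52). Libraries of a strain share its mean, so the first values rest on 8 clusters, and all of these values are a description.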

How the data were processed

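Adipose RNA of 8 mouse strains was sequenced from polyadenylated transcripts with spike-in controls, per the labels' protocols. The authors deposited expected counts per gene, in which reads that fit several genes are divided, and log2 values from a variance-stabilising transformation. DESeq2 and build GRCm38 are named in the submitters' processing notes. The aligner and counter are not given in the sources used here. Of the deposited expected counts 21.1% were not whole within 1e-06.

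Expected counts were rounded and tested with edgeR 4.0.16 (R 4.3.3): filterByExpr by strain kept 18603 genes and set aside 2566, counts were scaled by TMM, and robust quasi-likelihood fits had 1 mean per strain and no covariate. Each strain was compared with the unweighted mean of the other 7, and all 28 pairs were tested. Calls had a Benjamini-Hochberg adjusted p under 0.05 over all genes of a contrast. CPM are TMM-scaled, and log2 CPM had a prior count of 2. The scripts were tested on simulated data. Alternatives were RLE scaling, other filters, DESeq2 1.42.0, limma 3.58.1 on the deposited log2 values, replicate number as a block, a log2 Xist covariate and omitted libraries. The settings without Cast replicates 1 and 8 and all pair alternatives except RLE, DESeq2 and the block were added after the data were seen. Transcripts were aligned with blastn 2.17.0. Named genes were all members, the 3 genes most like Ifi202b and Mndal whose mean reached 1 CPM, and the called genes with the largest and smallest differences in each list. The members and lists were chosen with earlier results of these data known.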

Additional observations from a re-analysis of the deposited data

Results flagged for a closer look

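In 14 of 80 groups of 7 or 8 libraries, 1 for each member and strain, a single library lay far above the others. Chance gives about 1 in 20 only where groups are independent. The members share the same libraries, so that rate cannot show an excess here. Of the 14 groups, 6 were in Cast and 5 of them were replicate 5: Mndal at 31.1 CPM, Ifi203 at 60.01, Ifi209 at 11.9, Ifi211 at 71.4 and Ifi213 at 2.99. The next highest Cast library had 11.6 CPM of Mndal and 1.89 CPM of Ifi209. Cast replicate 8 was high for Ifi202b, at 2.68 CPM against 0.486 in the next.

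In NOD, replicate 3 was high for Ifi205 (78.4 CPM) and Ifi211 (14.8 CPM), whose transcripts share most of their sequence. In AJ, replicate 4 was high for Ifi205, at 64.3 CPM. Ifi209 was high in 129 replicate 1, at 2.69 CPM, and in NZO replicate 8, at 8.59 CPM. In B6, replicate 7 was high for Ifi202b, at 0.474 CPM, and replicate 6 for Aim2, at 6.28 CPM. The value of Ifi213 in 129 replicate 3, 0.0277 CPM, is 1 count.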

How the results depend on the processing

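All 10 members differed among strains under RLE scaling, without a filter, with DESeq2, with limma on the deposited values, with the replicate block, with the Xist covariate and without any 1 library. With genes of at least 5 CPM only, 7 members were left to test, and all 7 differed. Leaving out 1 library moved the count of called members from 8 to between 5 and 8 in 129 (5 without 129 replicate 4) and from 5 to between 3 and 5 in NOD (3 without NOD replicate 3). The difference of Ifi205 in NOD was lost in 28 of the 61 omissions of a single library. The order of Cast and B6 for Ifi202b turned, from 1.53 to -2.46, without Cast replicates 1 and 8, and was -0.025 by limma on the deposited values. The cause was not tested. The omission of Cast replicate 5 was counted among the single omissions and again among the other settings. Under these other settings, 473 compared values kept direction and call, 10 lost the call, 14 gained it and 2, both of Cast against B6, turned. Same-numbered libraries of different strains did not deviate together throughout (r from -0.473 to 0.619 over 186 pairs, over 0.1 in 99), and 14 of 61 libraries matched best a library of their own number, so the numbers were not taken to pair samples. With the replicate block 165 of 280 pair tests of members were called, against 164 without it. Depth limits Ifi213, whose counts were 0 to 10 per library in NOD.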

Other observations

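Hsd11b1, which encodes the enzyme that regenerates active glucocorticoid in adipose tissue, has been linked to Ifi202b in earlier work on NZO and B6 mice. Its mean was 35.8 ± 9.15 CPM in NZO and 33.8 ± 15.5 CPM in B6 (SD, n = 8 each). The difference, B6 minus NZO, was -0.09 on the log2 scale (SE 0.28, edgeR adjusted p = 0.844). Its highest means were 294 CPM in WSB and 187 CPM in PWK. Cast, with little Ifi202b, had 107 CPM. These levels do not test the earlier link, since the labels state no depot or sex. Adipocyte markers were also lower in NZO, for 9 of 12.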
